A study of Brassica oleracea with 8 samples.

Results

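Genes counted only in TO1000 were identifiers (ids) of the Brassica oleracea annotation, beginning with Bo, that had at least 10 raw counts in each of the 3 TO1000 libraries and at most 2 in each of the 5 libraries of kale and cabbage. This rule took 228 of 59225 Bo ids. It took 0.983% of the 23187 Bo ids that had at least 10 counts in each TO1000 library, which are called TO1000-counted genes here. The genes were chosen by their counts, so their levels and fold changes are given as a description, with no test.

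Each library was made from RNA of 8 pooled plants aged 24 days, taken from the upper stem with its meristems and immature leaves. The kale was lobed kale, called Red Winter in the study's methods and var. viridis in the labels, with 3 libraries. The cabbage, var. capitata in the methods and var. sabadua in the labels, had 2 libraries, and TO1000, var. alboglabra, a rapid cycling line of doubled haploid origin, had 3. No treatment or transgene was named for any morphotype, each morphotype was a single accession, and the reads of all 8 libraries were mapped to the TO1000 genome.

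Accessions of Brassica oleracea differ in gene content, so that a gene of a given reference genome may be missing from another accession or present there as a strongly diverged copy. A gene can also be present and intact in every accession and be transcribed in only some of them. Counts on a single reference depend on both, because reads of a copy that has diverged too far from the reference are not assigned to its gene. The genomes of the kale and the cabbage were not analysed here, so that for each of the 228 genes absence, divergence and lack of transcript cannot be told apart. In pooled tissue, fewer cells of a type and less RNA per cell cannot be told apart either. The files pair the ids with no gene names, and none of the ids matched the available RefSeq table. Of the 80 ids that the study names, 49 were TO1000-counted and 0 were among the 228 genes. Of all TO1000-counted genes 0.983% were among the 228, so nothing is read from this 0. No function is given to any of the 228 genes.

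The libraries held 3016197 to 7539991 counts on genes. When all were thinned to the smallest total, 38671 and 39449 Bo ids had a count in TO1000 replicates 2 and 3 and 38727 in kale replicate 3, against 31044 to 35297 in the other libraries. In contrast, the ids with at least 10 counts after thinning numbered 19754 to 21677 in all 8, so the libraries stood apart in their weakly counted ids. YAB1, ANT, GRF3 and GRF4, genes of young leaves and meristems, had 12 to 383 counts in every library. Their mean levels were lower in kale than in TO1000. In that order they were 21.5 and 48.8 CPM for YAB1 and 9.71 and 29.1 for ANT. For GRF3 they were 5.05 and 9.24, and for GRF4 2.75 and 7.91. In cabbage, YAB1 (61.2 CPM) and GRF3 (11.98 CPM) were higher than in TO1000, while ANT (20.4 CPM) and GRF4 (5.27 CPM) were lower. The copies of the leaf polarity gene REVOLUTA that the study names had 0 to 2 counts in each cabbage and TO1000 library and 10 to 70 in each kale library. AP1, a floral meristem gene, had 22 to 49 counts in kale and 0 or 1 in the others. The part of these differences in the 228 genes was not tested.

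These libraries bore on the number of genes. Leaving out a library can only keep or raise it, because the rule asks for a limit in every library. Genes gained without a TO1000 library have under 10 counts there by the rule. Leaving out TO1000 replicate 1 raised the number from 228 to 407, and the 179 genes gained had a median of 4 counts in that library. Of the ids with at least 10 counts in the other TO1000 libraries, 5.51% fell under 10 in replicate 1, against 1.07% for replicate 2 and 1.72% for replicate 3. Leaving out kale replicate 3 gave 306 genes, and 16 of the 78 gained had at least 10 counts there. Bo8g097560, chosen after its values were seen, had 57 counts in kale replicate 3 and 1 or 2 in each other kale and cabbage library. Leaving out cabbage replicate 2 gave 263 genes, and 9 of the 35 gained had at least 10 counts there. Leaving out any other library gave 233 to 253 genes. Among genes with at least 50 counts in each TO1000 library, a limit added after the data were seen, 44 met the rule, and 44 to 53 did so with a library left out.

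**Figure D1:**
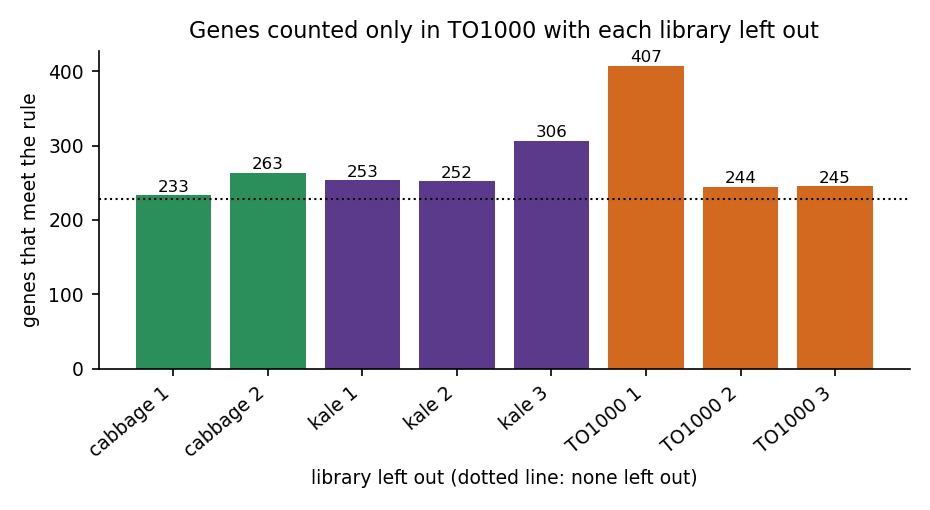
Number of genes that meet the rule when each library is left out in turn (bars, colored by morphotype of the library left out). The dotted line marks the 228 genes found with all 8 libraries. Leaving out TO1000 replicate 1 gives the highest bar, 407.

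As a group, the 228 genes held 10709, 11161 and 10070 counts in TO1000 replicates 1, 2 and 3. In kale they held 83, 74 and 128 counts in replicates 1, 2 and 3, and in cabbage 82 in each replicate. As a share of the counts on genes, this was 1586 to 2016 CPM in TO1000, 11.0 to 27.0 in kale and 14.3 to 27.2 in cabbage. CPM is the usual unit of counts relative to the total of the library. Unlike the CPM values of single genes, these shares were not scaled for library composition. The higher values of kale and cabbage came from kale replicate 3 and cabbage replicate 1. In kale replicate 3, 98 of the genes had a count, against 66 and 55 in the other kale libraries and 67 and 62 in cabbage.

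The kale and cabbage counts were spread thinly over the genes. In all 5 kale and cabbage libraries 60 genes were at 0, which allows a level of up to 0.116 CPM over those libraries pooled, taking 3 counts as the most that 0 can stand for. Another 124 had 1 to 3 counts over the 5 libraries, and 44 had 4 or more, with 8 as the highest sum. Kale was at 0 for 91 genes and cabbage for 126, and the limits that these allow were 0.175 CPM in kale and 0.342 CPM in cabbage. Both kale and cabbage had a count for 71 genes. These limits and the intervals below cover counting error only. They use counts summed over replicates, so the spread between replicates is left out. Copies made by PCR were also not told from separate molecules.

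The rule allows at most 2 counts in a kale or cabbage library whatever the level in TO1000, so how these counts vary with that level is given as a description only. The genes were divided by mean CPM in TO1000 into sets of 76. The lower set held 3646 counts in TO1000 and 169 in kale and cabbage together, the middle set 6381 and 136, and the upper set 21913 and 144. The number of genes at 0 in all 5 libraries was 18, 26 and 16 in the lower, middle and upper set.

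The levels in TO1000 were mostly low. CPM values of single genes were scaled by TMM, edgeR's factors for library composition. They are not per length, so levels of different genes include their lengths. The mean CPM of a gene over the 3 TO1000 libraries ran from 1.51 to 71.5, with a median of 3.96 and quartiles of 2.66 and 7.12. All TO1000-counted genes had a median of 12.3 and quartiles of 5.71 and 27.2. At least 10 CPM was reached by 37 of the 228 genes (16.2%) and by 57.3% of the TO1000-counted genes. Since a gene near 10 counts needs only a few-fold lower level to fall to 2, the rule itself reaches weakly expressed genes more easily.

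The share of TO1000-counted genes that met the rule fell with the level. Under 3 CPM it was 3.72% (76 of 2044), from 3 to 10 CPM 1.46% (115 of 7865), from 10 to 30 CPM 0.373% (30 of 8036) and from 30 to 100 CPM 0.182% (7 of 3856). None of the 1386 genes with 100 CPM or more met it. The lowest of the 3 TO1000 counts was 10 to 12 in 44 of the 228 genes and at least 100 in 12.

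For TO1000-counted genes of at least 10 CPM, the ratio of the higher of the kale and cabbage means to the TO1000 mean was 0.5 or more in 12570 of 13278 (94.7%). It lay from 0.25 to 0.5 in 495 genes, from 0.125 to 0.25 in 103 and from 0.0625 to 0.125 in 36, and none of these met the rule. The limit of 2 counts per library keeps the ratio low for any gene of this level that meets the rule. Such genes could thus lie only in the lower bins, and their place there is a description only. Of the 22 genes in the next bin 2 met the rule, and of the 17 in the bin after it 7. The last bin, open down to a ratio of 0 and so the widest on this scale, ran up to 0.0156 and held 35 genes, 28 of which met the rule.

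**Figure D2:**
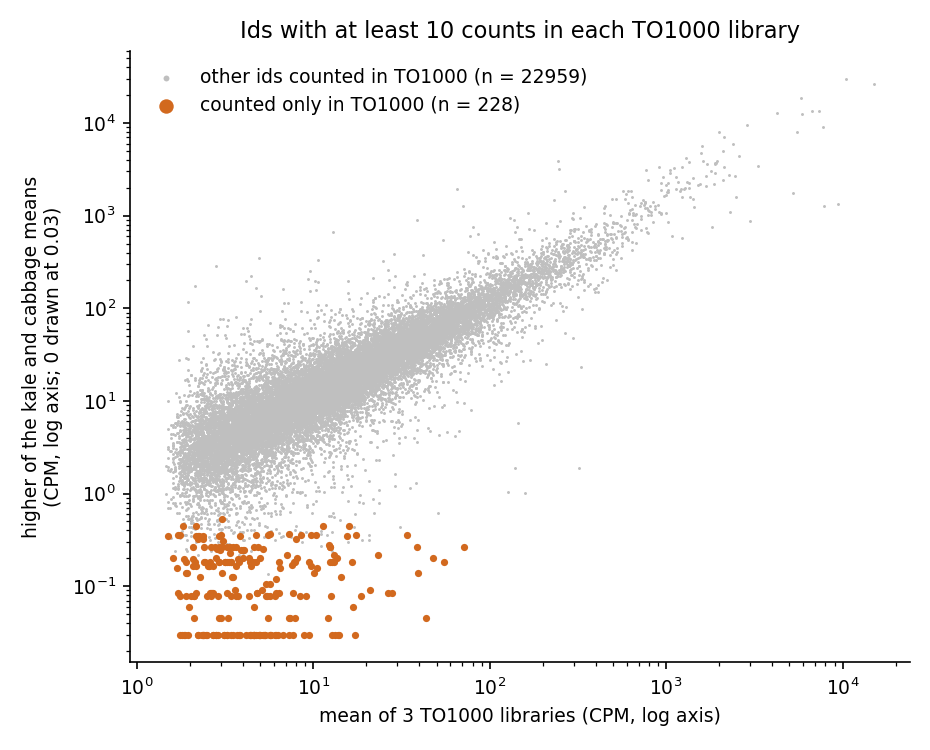
Mean CPM in TO1000 (x axis, log) against the higher of the kale and cabbage mean CPM (y axis, log, with 0 drawn at 0.03) for the 23187 TO1000-counted genes. Each point is a gene, and the 228 genes counted only in TO1000 (orange) lie below the cloud of other genes (grey) between 1.51 and 71.5 CPM.

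The most abundant of the genes was Bo6g072370, on chromosome 6 by its id. It had 570, 464 and 427 counts in TO1000 replicates 1, 2 and 3, 0, 1 and 1 in kale and 1 and 1 in cabbage. Its mean was 71.5 CPM ± 15.3 (SD, n = 3) in TO1000. The pooled level was 607 times that of kale (95% exact interval 168 to 5016) and 311 times that of cabbage (85.8 to 2568). The intervals are wide because the kale and cabbage levels rest on 2 counts each.

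Bo9g148100 on chromosome 9 had 444, 376 and 311 counts in TO1000, 0 in every kale library and 1 and 0 in cabbage. It was at least 313-fold higher in TO1000 than in kale, with 3 counts over the 3 kale libraries as the limit of a count of 0. Bo7g104040 on chromosome 7 had 303, 367 and 321 counts in TO1000, 1, 0 and 2 in kale and 1 and 0 in cabbage. Its TO1000 libraries were close to each other, at 48.0 CPM ± 1.48 (SD, n = 3).

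Bo2g165610 on chromosome 2 had 263, 345 and 292 counts in TO1000, a single count in kale replicate 1 and 0 elsewhere. Bo3g170900 on chromosome 3 had 255, 339 and 220 counts in TO1000, 0, 1 and 1 in kale and 0 in cabbage. Against cabbage these genes were at least 128-fold and 115-fold higher in TO1000, respectively, with the limit of 3 counts over both cabbage libraries. Bo01000s010, the only gene model on its scaffold, had 254, 278 and 267 counts in TO1000, 1, 0 and 0 in kale and 1 and 1 in cabbage. Scaffolds are assembled pieces that were placed on none of the 9 chromosomes.

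Bo5g085140 had 236, 216 and 248 counts in TO1000, 1, 0 and 0 in kale and 2 and 0 in cabbage. Bo9g071710 had 196, 195 and 185 in TO1000, with a single count in kale replicate 2 and in cabbage replicate 2. Bo5g137870 had 227, 166 and 148 in TO1000, 0 in kale and a single count in cabbage replicate 2. These genes thus had more than 100 counts in every TO1000 library and at most 2 in any other library. Bo7g005310 had 166, 169 and 145 counts in TO1000 and 0, 1 and 2 in kale, and Bo2g127550 had 180, 119 and 129 in TO1000 and 2, 0 and 0 in kale. Bo8g098430 had 115, 171 and 99 counts in TO1000 and a single count in kale replicate 3. The last 3 were at 0 in both cabbage libraries.

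**Figure D3:**
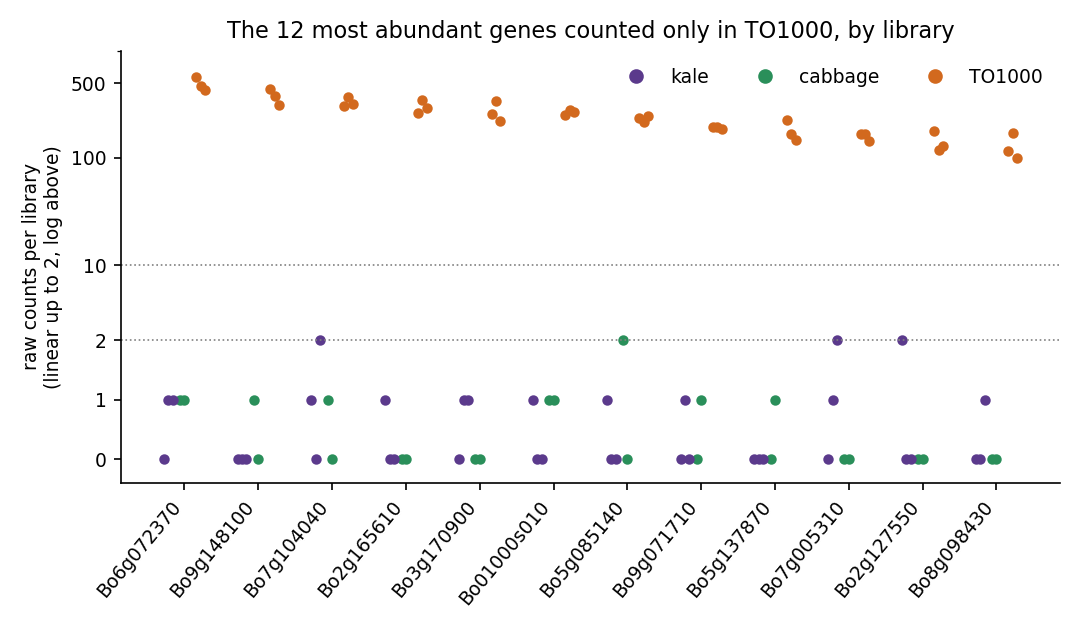
Raw counts per library (y axis, linear up to 2 and log above) of the 12 genes with the highest mean CPM in TO1000. Each point is a library, and the dotted lines mark the limits of the rule, 2 and 10 counts. All TO1000 points lie between 99 and 570 counts and all kale and cabbage points at 0, 1 or 2.

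The limits of the rule divide genes with similar values. Just inside, Bo3g133020 had 10, 12 and 13 counts in TO1000 and 0, 0 and 2 in kale. Bo3g066670 had 12, 10 and 11 in TO1000, and Bo2g047410, the lowest by mean CPM (1.51), had 10, 11 and 10 with 2 counts in both kale replicate 3 and cabbage replicate 2. Just outside, with 3 as their highest count in kale or cabbage, Bo4g108620 had 226, 218 and 194 counts in TO1000 and 1 and 3 in cabbage. Bo8g045840 had 183, 145 and 155 in TO1000 and 3 in each cabbage library, and Bo4g137930 had 126, 169 and 163 in TO1000 and 2 and 3 in cabbage. Bo4g108620 and Bo8g045840 were at 0 in all kale libraries and Bo4g137930 had a single kale count, and the TO1000 levels of all 3 (22.2 to 31.1 CPM) were above the upper quartile of the genes inside.

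Some members had counts in most kale and cabbage libraries. Bo2g024630 had 14, 19 and 16 counts in TO1000 and 8 in kale and cabbage together, and Bo4g039700 had 18, 16 and 12 and also 8. Bo2g137070 had 54, 53 and 42 counts in TO1000, 2 in each kale library and 1 and 0 in cabbage, with 7.26 CPM in TO1000. Bo3g153840, added after its values were seen because it tied, had the same sum of 7 in kale and cabbage, and 12, 19 and 15 counts in TO1000. In Bo2g024630 and Bo4g039700 every kale and cabbage library had a count.

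Within TO1000, the highest CPM of a gene was a median of 1.47 times its lowest among the 228 genes and 1.31 times among all TO1000-counted genes, which are more abundant. TO1000 replicate 1 was the highest of the 3 in 108 of the genes (47.4%), against 38.8% of the TO1000-counted genes. It had the smallest total of the 3 (5310933 counts), so among weak genes the limit of 10 counts favours those high in it. The part of this limit in the difference was not tested. The genes that differed most were Bo5g098180, with 26, 128 and 136 counts in replicates 1, 2 and 3 and 0 in all kale and cabbage libraries, and Bo3g170790, with 34, 15 and 10. Those that differed least were Bo8g054700, with 23, 27 and 25 counts, and Bo00418s100, with 15, 17 and 16. TO1000 replicate 1 was thus the low library for Bo5g098180 and the high library for Bo3g170790.

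At most 2 counts in each kale library were found in 495 TO1000-counted genes (2.13%), and at most 2 in each cabbage library in 825 (3.56%). The 228 genes are by the rule those found in both sets, and made up 46.1% of the former and 27.6% of the latter. The fits of kale and of cabbage against TO1000 share the TO1000 libraries. In edgeR's quasi-likelihood fit of all 8 libraries, 226 of the 228 genes passed the filter on low counts. All 226 were called lower in kale, where 13.5% of all tested features were, and 223 lower in cabbage, where 14.8% were. Nothing is read from these calls, because the same counts chose the genes.

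The same rule was applied to the other morphotypes. Counted only in kale were 240 of the 21893 ids with at least 10 counts in each kale library. This was 11.0 per 1000, against 9.83 per 1000 for TO1000. Counted only in cabbage were 27 of the 19668 ids with at least 10 counts in each cabbage library. With all libraries thinned to the smallest total, the numbers were 164 for TO1000, 172 for kale and 44 for cabbage. Thinning does not level the number of libraries, 2 for cabbage and 3 for each of the others. The numbers of cabbage are thus not directly comparable with those of the others. The reverse pattern, at most 2 counts in each TO1000 library and at least 10 in each of the others, was found in 78 ids. There were 18296 ids with at least 10 counts in each kale and cabbage library. After thinning, 94 ids had the reverse pattern, and its cause was not tested.

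By their ids, 199 of the 228 genes lay on chromosomes and 29 on scaffolds. Chromosomes 1 to 9 held 20, 27, 30, 25, 18, 16, 20, 17 and 26 of them in that order. Per 1000 TO1000-counted genes the chromosomes ranged from 7.02 on chromosome 8 to 13.0 on chromosome 2, with 8.85 over all chromosomes. On scaffolds the value was 41.8 per 1000, since 12.7% of the 228 genes but 2.99% of the TO1000-counted genes had scaffold ids. The share on scaffolds stayed between 11.9% and 13.5% with any library left out. No chance test was run on positions, and the build's coordinates were not used.

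Among the genes counted only in kale, 14 of 240 (5.83%) were on scaffolds, against 2.62% of the kale-counted ids. After thinning this was 7 of 172 (4.07%), while 22 of the 164 thinned TO1000 genes (13.4%) were on scaffolds. Of the 78 ids silent only in TO1000, 4 (5.13%) were on scaffolds, against 2.36% of the ids counted in kale and cabbage. Of the 126 ids silent only in kale, 12 (9.52%) were on scaffolds, against 2.51% of the ids counted in the others, and of the 184 silent only in cabbage 11 (5.98%), against 2.43%. A scaffold share above that of the counted ids was thus found in each of these sets, and whether the shares differ between sets was not tested.

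**Figure D4:**
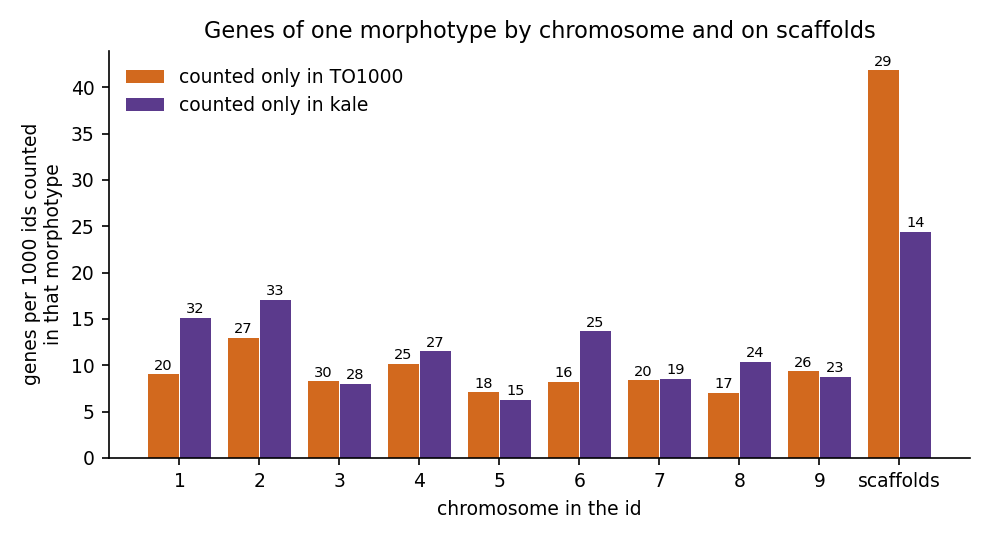
Genes counted only in TO1000 (orange) and only in kale (purple) per 1000 ids counted in that morphotype, by the chromosome in the id and for scaffolds. Numbers above the bars are genes, and the tallest bar is that of the 29 scaffold genes of TO1000 (41.8 per 1000).

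The 29 scaffold genes were on 27 scaffolds. Of them 14 (48.3%) were the only id of their scaffold, against 26.4% of the TO1000-counted scaffold ids. On the same 27 scaffolds there were 15 other TO1000-counted ids, of which 11 had at least 10 counts in each kale library and 10 in each cabbage library. At most 2 counts in each kale library were found in 1 of the 15, and in each cabbage library in 3. Of all TO1000-counted ids that did not meet the rule, 87.2% had at least 10 counts in each kale library and 81.5% in each cabbage library. At most 2 counts were found in 1.16% of them for kale and 2.60% for cabbage. The difference from the 15 ids was not tested. A scaffold with a single id gives no other id to compare. The median level of the scaffold genes was 4.62 CPM in TO1000, against 3.81 CPM for those on chromosomes, and 8 of them were at 0 in all kale and cabbage libraries.

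Most of the genes stood alone. The next id on either side was another of the 228 genes for 19 of them (8.33%), in 8 runs of 2 and a run of 3. With up to 1 other id in between, 24 genes (10.5%) fell in 11 runs, the longest with 4. Counting along TO1000-counted genes only, 28 genes (12.3%) fell in 13 runs, again with 4 as the longest. For the genes counted only in kale, the next id was another such gene for 14 of 240 (5.83%). It was so for 0% of the 27 ids counted only in cabbage and 2.56% of the 78 silent only in TO1000. Of the 126 silent only in kale it was 3.17%, and of the 184 silent only in cabbage 2.17%. Such a share depends on the size of the set, and no background share over the TO1000-counted genes was taken.

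The run of 4 was on chromosome 4. Bo4g026970 had 37, 24 and 41 counts in TO1000 replicates 1, 2 and 3 and 0 in all other libraries. Bo4g026990 had 88, 54 and 56 counts in TO1000, and its counts in kale replicate 1 and cabbage replicate 2 were 2 each. Bo4g027000 had 45, 56 and 45 in TO1000 and 0, 1 and 2 in kale. Its neighbour Bo4g027010, the most abundant of the run at 16.5 CPM ± 2.76 (SD, n = 3), had 86, 139 and 118 in TO1000, 0, 2 and 0 in kale and 1 and 0 in cabbage. The libraries thus had no common order over the run, with TO1000 replicate 1 highest for Bo4g026990 and lowest for Bo4g027010.

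The id inside the run, Bo4g026980, was nearly without counts in every library, with 1, 2 and 0 in TO1000. On one side, Bo4g026960 had 5, 7 and 7 counts in kale, 7, 3 and 3 in TO1000 and 0 in cabbage. On the other side, Bo4g027020 had 2, 2 and 3 counts in kale, 2, 7 and 1 in TO1000 and 0 in cabbage. The kale and TO1000 libraries overlapped for both neighbours, both were at 0 in cabbage, and neither passed the filter on low counts. The nearest ids with many counts in all morphotypes, named for their position, were Bo4g026900, with 53 to 69 counts in kale and 92 to 135 in TO1000, and Bo4g027060, with 149 to 247 in kale and 377 to 431 in TO1000.

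**Figure D5:**
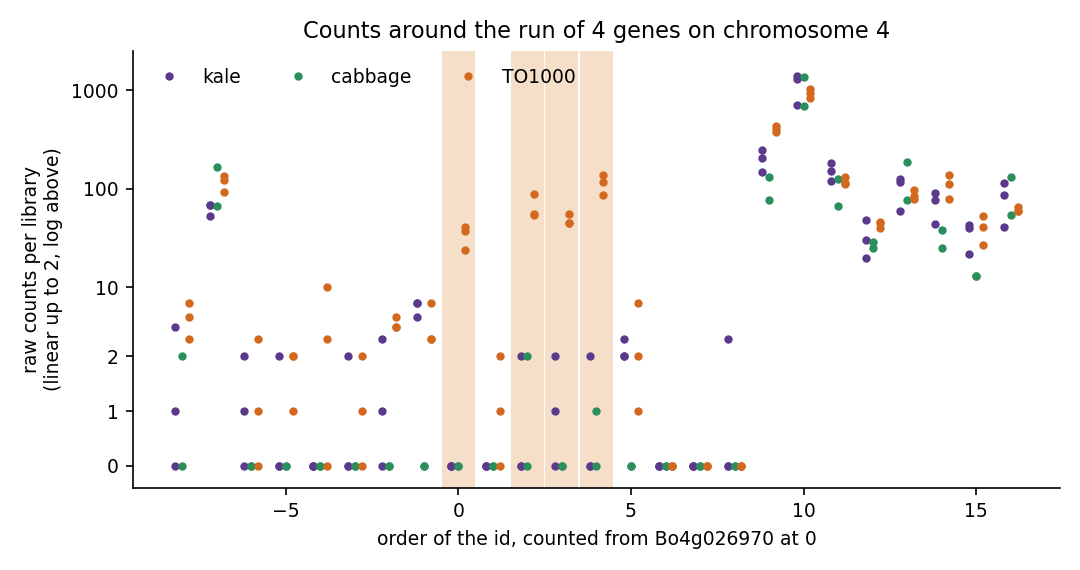
Raw counts per library (y axis, linear up to 2 and log above) of the ids around the run of 4 genes on chromosome 4, in the order of the ids with Bo4g026970 at 0. Each point is a library, and shading marks the 4 genes. Only TO1000 points stand above 2 counts in the shaded ids, while at order 9 and beyond all 3 morphotypes have 13 or more counts.

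On chromosome 2, Bo2g165590 and Bo2g165610 formed a run with the uncounted Bo2g165600 between them. Bo2g165590 had 153, 100 and 98 counts in TO1000 and 0 in all 5 kale and cabbage libraries, the most abundant gene to do so, at 17.3 CPM ± 5.79 (SD, n = 3). Bo2g165600 had 0 counts in all 8 libraries. The id before the run, Bo2g165580, had at most 2 counts in any library. The id after it, Bo2g165620, had 31 to 42 counts in kale, 50 and 99 in cabbage and 116 to 146 in TO1000. Bo2g165620 was lower in kale than in TO1000, with a log2 fold change of −1.50 ± 0.22 (SE; edgeR adjusted p = 5.06e-05). In cabbage its change was −0.12 ± 0.23 (SE; edgeR adjusted p = 0.714).

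Bo2g092510 and Bo2g092520, the other named run on chromosome 2, were next to each other and weak. They had 13, 13 and 17 and 16, 16 and 22 counts in TO1000. Bo2g092510 had 0, 2 and 1 counts in kale and 0 in cabbage, and Bo2g092520 had 0 in kale and a single count in each cabbage library. The ids on either side were counted in all morphotypes. Bo2g092500 had 8 and 11 counts in cabbage, 15, 29 and 15 in kale and 18, 11 and 14 in TO1000, while Bo2g092530 had 115 to 250 in kale and 46 to 69 in TO1000. Bo2g092530 was higher in kale than in TO1000, with a log2 fold change of 1.74 ± 0.20 (SE; edgeR adjusted p = 5.38e-06).

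Flanking ids were those next to the 228 genes that were not themselves among them. An id that met the rule was by definition not a flanking id, so their calls are given as counts beside those of other ids, with no test of the set. There were 398 flanking ids, of which 170 passed the filter on low counts. In kale, 32 (18.8%) were called lower than in TO1000 and 32 (18.8%) higher, where 13.5% and 14.2% of all tested features were. In cabbage, 50 (29.4%) were called lower and 21 (12.4%) higher, where 14.8% and 11.5% were. Over the tested Bo ids outside the 228, which like the flanking ids hold none of these genes, the shares were 12.7% lower and 14.4% higher in kale and 14.0% lower and 11.6% higher in cabbage. The median log2 fold change of the flanking ids was 0.01 in kale and −0.22 in cabbage, against 0.01 and −0.01 over all tested Bo ids outside the 228. Without cabbage replicate 2, fewer features were called between cabbage and TO1000. Of the flanking ids 17.1% were then lower in cabbage, where 8.47% of all tested features were. Within 5 ids on each side, with all 8 libraries, 18.0% were lower in cabbage, where 14.8% of all tested features were.

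Of the flanking ids, 132 were TO1000-counted. At least 10 counts in each kale library were found in 78.8% of these and in each cabbage library in 67.4%, against 87.2% and 81.5% of all TO1000-counted ids outside the 228. At most 2 counts in each kale library were found in a single flanking id (0.758%, against 1.16%), and in each cabbage library in 13 (9.85%, against 2.60%). The flanking ids under 10 counts in a TO1000 library are not in these shares. Of all ids adjacent to the 228 genes, others of the 228 included, 36.0% were TO1000-counted, and of those adjacent to TO1000-counted genes 50.4%, a difference that was not tested.

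Some flanking ids, chosen after their values were seen, had a wide difference too. Bo2g029020 had 1178, 852 and 816 counts in TO1000, 14, 8 and 10 in kale and 3 and 10 in cabbage. Its log2 fold changes were −6.21 ± 0.27 (SE) in kale and −6.55 ± 0.35 (SE) in cabbage, with edgeR adjusted p of 1.99e-10 and 1.23e-09. The groups did not overlap, and the id missed the rule through its few counts in kale and cabbage.

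Bo7g104030, next to the abundant Bo7g104040, had 913, 1152 and 860 counts in TO1000, 227, 170 and 144 in kale and 4 and 1 in cabbage. In kale its log2 fold change was −2.16 ± 0.20 (SE; edgeR adjusted p = 4.49e-07) and in cabbage −7.87 ± 0.40 (SE; edgeR adjusted p = 6.27e-10). Here the kale libraries lay between those of cabbage and TO1000, unlike in Bo7g104040. Bo5g085150, next to Bo5g085140, had 47, 47 and 58 counts in TO1000, 2, 0 and 0 in kale and 3 and 9 in cabbage. Bo8g098420, next to Bo8g098430, had 20, 29 and 24 in TO1000, 1, 3 and 7 in kale and 0 in cabbage. Both were called lower in kale and in cabbage, with edgeR adjusted p of 0.000883 or less for Bo5g085150 and of 0.00672 or less for Bo8g098420.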

How the data were processed

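The authors trimmed reads with cutadapt 2.4, used STAR to map them to the genome of TO1000, and deposited unnormalized counts per gene, 1 count per id in each file. Whether these counts are of a single strand is not given in the sources used here, so reads of overlapping or antisense genes may not be told apart. Per their methods, cDNA was made without DNase treatment and amplified by PCR, and a further cabbage replicate was not used. Of 60586 features, the 1361 not beginning with Bo could be no members but stayed in the fits. Libraries were grouped by their titles. The study calls the replicates biological, and whether they were separate sowings is not given in the sources used here.

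Counts were fitted in R 4.3.3 with edgeR 4.0.16 (filterByExpr, TMM, quasi-likelihood test, morphotype as the only term, all 8 libraries). P values were adjusted by Benjamini-Hochberg over 84378 tests, 28126 features in each of 3 pairwise comparisons, and a call needed an absolute log2 fold change above 1 at an FDR under 0.05. Thinning drew counts without replacement to 3016197. Ratios of pooled CPM have 95% exact intervals from the summed counts, which leave out the spread between replicates. Neighbours are ids that follow each other by number. The fit was tested on simulated counts, and the search for runs on chosen ids with a known answer.

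The genes and lists were chosen with earlier results of these data known. Named were the 12 genes highest in TO1000, the 3 longest runs (up to 1 other id between, ties taken by chromosome and number, since all but the longest had 2 genes) with the ids inside and next to them, any gene that the study names, the 3 with most counts in kale and cabbage, the 3 lowest, the 3 just outside the rule, and the 2 that differed most and the 2 least among TO1000 libraries. Young leaf, meristem and flower markers were taken from the study. Alternatives were other count limits, thinning, a rule on CPM, other scaling, no filter, DESeq2 1.42.0, a replicate block, 2 morphotypes per fit, FDR alone, 5 flanking ids and leaving out libraries. No reference sequence was used.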

Additional observations from a re-analysis of the deposited data

How the results depend on the processing

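The number of genes counted only in TO1000 (228) followed the limits of the rule. It was 520 with at least 5 counts in TO1000, 123 with at least 20, 60 with 0 counts in kale and cabbage, 447 with at most 5 and 145 with limits of 2 and 0.4 CPM. Leaving out each library gave 233 to 407, the highest without TO1000 replicate 1. After the data were seen, at least 50 counts (44) and leaving out TO1000 replicate 1 and kale replicate 3 together (634) were added. The share beside another gene (8.33%) was 0% with 0 counts in kale and cabbage, 5.52% by CPM and 0% with at least 50 counts, while the share on scaffolds lay between 9.62% and 15.9% in all 16 alternatives. With no scaling beyond the total the median level was 4.44 CPM in place of 3.96. Without the count filter, the flanking ids lower in cabbage were 16.5% (9.37% of all features). Those higher were 9.80% in kale (8.50% of all features) and 6.44% in cabbage (6.31%). Lower in cabbage were 18.0% with 5 ids on each side (14.8% of all features). With a library left out they were 17.1% to 31.8% (8.47% to 16.3% of all features), the lowest without cabbage replicate 2. FDR alone raised all calls between kale and TO1000 from 7791 to 12001. The other alternatives kept these values within 1.5 times, and the cause of the changes was not tested. Correlations of same-numbered libraries were −0.115 to 0.196 and those of others −0.174 to 0.174, so the numbers were not read as pairs. With the replicate block 19.4% of the flanking ids were lower in kale and 26.5% in cabbage, where 13.4% of all tested features were in each.

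Depth limits these results. Most of the genes have few counts in TO1000, a level of up to 0.175 CPM in kale or 0.342 CPM in cabbage is not detectable from 0 counts, and cabbage has 2 libraries only. No sequence or genomic read of kale or cabbage was analysed.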
